A study of Zanthoxylum armatum with 24 samples.

Results

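The genes described here were higher at stage 3, the differentiation of the floral primordia, than at stages 1 and 4 in both male and female floral samples of *Zanthoxylum armatum*, the tree known as green prickly ash. They were chosen from the expression values themselves. For each group the mean of log2(FPKM + 1) was taken, and a gene became a member when its M3 mean exceeded both the M1 and the M4 mean by at least 1, its F3 mean exceeded both the F1 and the F4 mean by at least 1, and M3 and F3 lay less than 1 apart. A difference of 1 on this scale is close to a doubling for well expressed genes and understates the change of genes with low FPKM. The rule gave 56 members among 38734 genes that reached 1 FPKM in at least 3 libraries, out of 60592 genes listed.

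RNA was sequenced from male (M) and female (F) floral samples at undifferentiated primordia (M1, F1), primordia initiation (M2, F2), primordia differentiation (M3, F3) and flower development and maturation (M4, F4). The trees were of one planting and one age, sex was scored on each tree after flowering, and every library was made from mixed buds of several trees of one sex. Each of the 8 groups had 3 libraries, except that the M2 values came from 2 libraries, because the third M2 table held 183 genes of which 182 equalled the first M3 library. Stages were collected one after another through the season, so stage and sampling date cannot be told apart. The study calls its replicates independent, but the sources used here do not say whether those of a group came from different trees. They also do not say whether the same trees supplied successive stages. Errors and p-values therefore describe the spread between pools of buds, which may not be the spread between trees.

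In the floral meristem, whorls of organs are laid down in order. In some species a unisexual flower forms when the growth of the stamens or of the pistil stops while the other organ goes on. Initiation sets out the primordia, and differentiation is the phase in which cells of the primordia divide, expand and take on the identity of an organ. Transcription factors of the MADS-box family give stamens and pistils their identity, and genes for division, growth and cell walls are used by both organs. No gene name, protein or sequence comes with the members in the deposited tables, so they are given by gene ID and no function is attached to any of them. Of the members 55 carried an ID of the published genome annotation and 1 an ID for a newly assembled transcript.

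Relative depth, read from the smallest steps between FPKM values, was 0.903 to 0.945 in the M3 libraries and 0.853 to 0.942 in the F3 libraries, against 0.946 to 1.09 in the libraries of the other stages. The sequencing tables of the study, whose values are not repeated here, also list a lower mapped share for every M3 and F3 library than for any other library. They list a lower RNA integrity for M3 than for the other male groups and for F3 than for F1 and F2. The part of depth, mapping and RNA integrity in the results below was not tested. The FPKM of all genes summed to 109.6% to 112% of the median library in the F3 libraries and to 93.9% to 105% in all other libraries. When every library was scaled to the same sum, the median log2 difference of all genes was 0.14 in M3 vs F3, -0.10 in F3 vs F1 and -0.12 in F3 vs F2. Of 23 floral organ identity genes annotated by the study, 3 averaged at least 1 FPKM in M1, 8 in M2, 11 in M3 and 21 in M4, and 2, 5, 10 and 17 did so from F1 to F4, so few of the organ markers were present in the early buds of either sex.

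Together the members held a small part of all transcripts, and the part was largest at stage 3. Their share of the summed FPKM was 0.351% ± 0.008 in M1, 0.376% ± 0.006 in M2, 1.06% ± 0.04 in M3 and 0.273% ± 0.011 in M4 (SD, n = 3, M2 n = 2). In the female libraries it was 0.389% ± 0.003 in F1, 0.449% ± 0.006 in F2, 0.984% ± 0.017 in F3 and 0.172% ± 0.003 in F4 (SD, n = 3). The lowest M3 library (1.03%) and the lowest F3 library (0.964%) lay above every library of the other stages. Without the 2 most abundant members the shares were 0.454% to 0.477% in M3 and 0.487% to 0.511% in F3, and the highest value at any other stage was 0.264%, in F2. These shares follow from how the members were chosen and are given as a description.

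The members were more abundant than the median gene at stage 3, the stage for which they were chosen, and close to it or below it at stages 1 and 4. Their mean over the M3 and F3 libraries ran from 1.81 to 2799.8 FPKM with a median of 24.0 FPKM, against a median of 7.52 FPKM over all genes tested. There were 16 members at or above 100 FPKM, which is 28.6% of them, against 4.14% of all genes tested. The log2(FPKM + 1) scale also makes the differences of the rule harder to reach for weakly expressed genes. The higher abundance of the members therefore follows in part from the rule. A further 23 members lay between 10 and 100 FPKM and 17 below 10 FPKM. By group the median member stood at 6.23 FPKM in M1, 12.5 in M2, 17.7 in M3 and 5.13 in M4, where the median gene stood at 7.46, 7.55, 7.48 and 7.59 FPKM. In females it stood at 7.997 FPKM in F1, 9.43 in F2, 26.9 in F3 and 8.24 in F4, where the median gene stood at 7.51, 7.32, 7.37 and 7.44 FPKM.

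**Figure D1:**
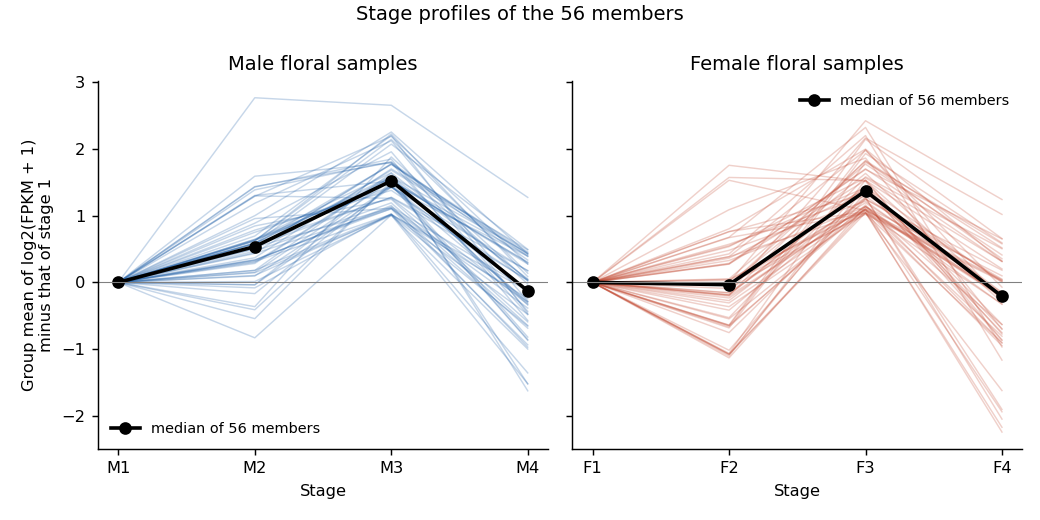
Each thin line is 1 of the 56 members, drawn as the group mean of log2(FPKM + 1) minus the stage 1 mean of the same sex, with male groups on the left and female groups on the right. The thick line is the median, which stood at 0.54 at M2 and -0.03 at F2 before the stage 3 peak that defines the set, 1.52 at M3 and 1.37 at F3.

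The differences that the rule set were mostly moderate. The median member was 1.52 higher in M3 than in M1, 1.63 higher in M3 than in M4, 1.37 higher in F3 than in F1 and 1.48 higher in F3 than in F4, on the log2(FPKM + 1) scale. The smallest of a member's 4 differences ran from 1.01 to 1.79 with a median of 1.12, and 38 members were below 1.2, so most lay close to the threshold. Just inside stood Zardc44835 and Zardc26025, each with a smallest difference of 1.01, and just outside stood Zardc03943 and Zardc05946, each with 0.99. Only 4 members kept every difference at 1.5 or more. M3 minus F3 ran from -0.98 to 0.95 with a median of -0.24, and M3 had the higher mean in 21 members and F3 in 35. With every library scaled to the same sum the median was -0.09, and M3 was higher in 25 members and F3 in 31.

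Library by library the peak was clear for most members. All M3 libraries lay above all other male libraries in 50 members, against 5.08% of the genes tested, and all F3 libraries lay above all other female libraries in 51, against 7.37%. Both held in 47 members, against 2.21% of the genes tested. The rule nearly fixes these counts, except for the place of stage 2, which it did not use. Of the 9 members without this separation, 7 reached it against stages 1 and 4 in both sexes and overlapped with stage 2 alone.

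The most abundant member was Zardc05911. In male libraries it had 936, 1026 and 912 FPKM in M1, 837 and 866 in M2, 2849.8, 2347 and 2737 in M3, and 532, 506 and 535 in M4. In female libraries it had 576, 606 and 585 FPKM in F1, 987, 925 and 915 in F2, 2900.1, 2762 and 3204 in F3, and 279, 337 and 289 in F4. No library of another stage came near the stage 3 values in either sex, and stage 4 was the lowest stage in both. Zardc02728 was close behind, with 843, 884 and 796 FPKM in M1, 668 and 637 in M2, 2894, 2928 and 3502 in M3, and 780.1, 859 and 929 in M4. Its female values were 1160.3, 1208 and 1004 FPKM in F1, 915, 877 and 924 in F2, 2353, 2573 and 2272 in F3, and 282, 294 and 298 in F4. The M2 libraries were the lowest male libraries of this gene, and its F4 libraries the lowest female ones.

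The members with the largest smallest differences were Zardc35777 (1.79) and Zardc12046 (1.68), which were expressed far lower. Zardc35777 was also the member furthest apart between the sexes at stage 3. Its M3 minus F3 was -0.98, just inside the limit of 1. Zardc35777 had 3.25, 4.69 and 4.33 FPKM in M1, 13.3 and 15.2 in M2, 16.7, 17.7 and 15.2 in M3, and 2.2, 2.42 and 3.32 in M4. In females it had 9.04, 7.21 and 7.19 FPKM in F1, 10.6, 9.41 and 11.4 in F2, 33.3, 32.8 and 34.7 in F3, and 8.02, 6.51 and 7.60 in F4. The male libraries had reached nearly their peak by stage 2, whereas the female libraries had not. Zardc12046 had 5.52, 5.16 and 5.07 FPKM in M1, 15.2 and 13.4 in M2, 29.0, 25.8 and 27.9 in M3, and 6.66, 6.72 and 6.31 in M4. It had 7.12, 8.89 and 7.15 FPKM in F1, 14.4, 13.9 and 14.2 in F2, 34.8, 32.2 and 34.1 in F3, and 8.85, 10.2 and 10.5 in F4, so both sexes passed through a similar level at stage 2.

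**Figure D2:**
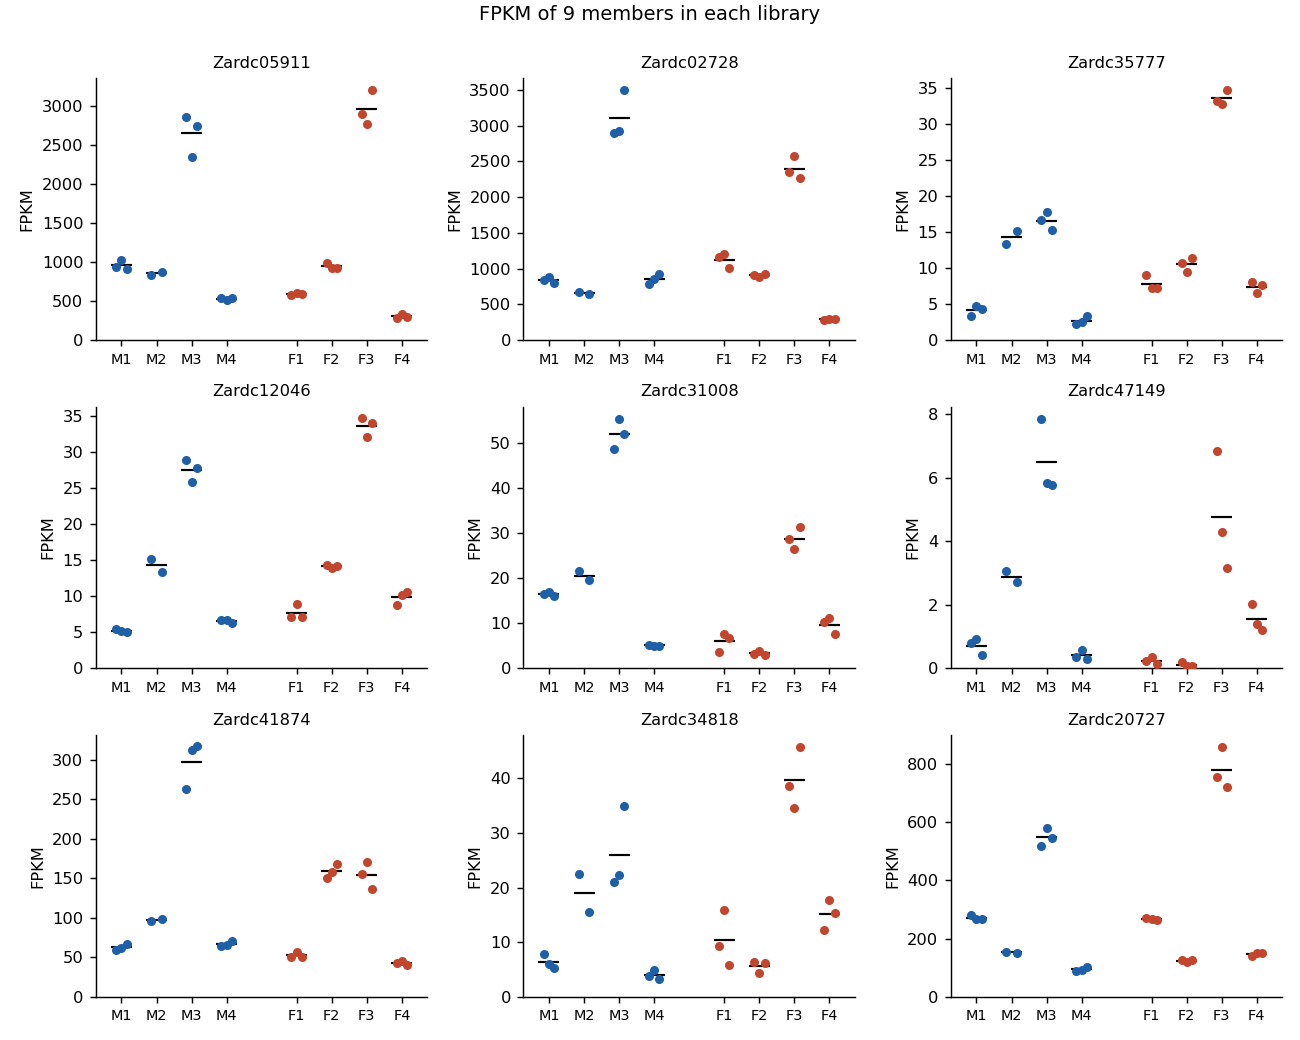
Points are the FPKM of single libraries for 9 members, male groups in blue on the left and female groups in red on the right, and black bars are group means. Zardc05911 and Zardc02728 are at 2272 FPKM or more in every stage 3 library, whereas Zardc31008, Zardc47149 and Zardc34818 are higher in M2 than in F2 and Zardc41874 is already at its female peak in F2.

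Stage 2 was the only stage the rule left out, so M2 vs F2 is the comparison that used none of the libraries of the rule. It was still chosen with earlier results of these data known. The median member was also more abundant at stage 2 than the median gene, and the shares of all genes below are not matched for abundance. In limma, fitted over all 8 groups with Benjamini-Hochberg adjustment over all genes tested, a gene was called at an adjusted p of at most 0.05 with a log2 fold change of at least 1 in size. M2 was called higher than F2 in 10 members, 17.9% of them, against 3.72% of all genes tested. Called lower in M2 were 0 members, against 1.1% of all genes tested, and at an unadjusted p the counts were the same. In 3 of the alternatives, namely quantile normalization and the fits without M2 replicate 1 or F2 replicate 1, 1 member was called lower in M2. Without the fold threshold, 19 members were higher and 7 lower in M2 at that adjusted p, against 12% and 9.84% of all genes tested. The median difference of the members was 0.17, and their range was -0.998 to 2.32, with the lowest member just short of the fold threshold. The 2 M2 libraries lay above all 3 F2 libraries in 27 members and below them in 13, against 26.1% and 24.2% of the genes tested. The 10 calls are fewer in independent terms, because 7 of them belong to 3 runs of neighbouring gene IDs. Counting each run once leaves 6. Where a test against the fold threshold itself was used (limma treat), 1 of the 10 calls was left, that of Zardc31008.

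**Figure D3:**
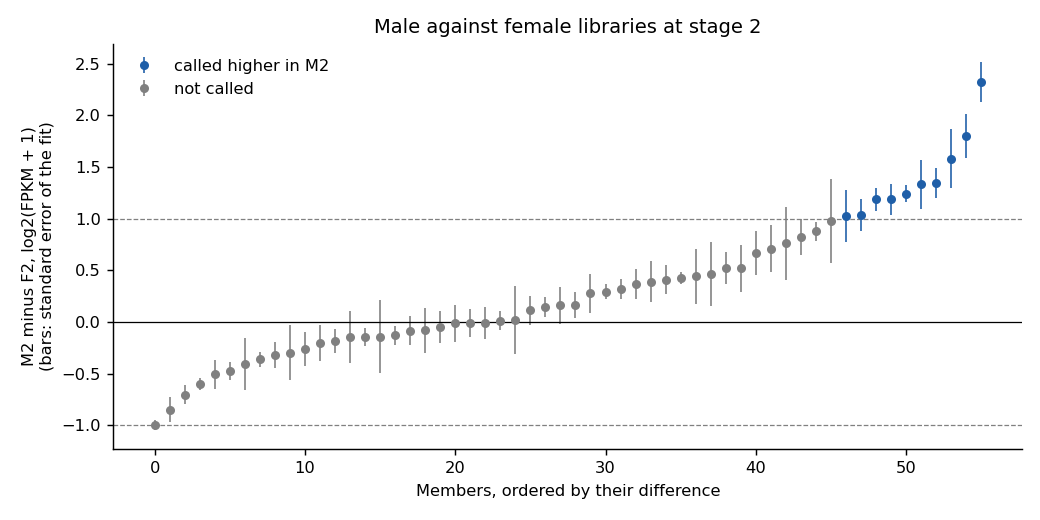
Each point is the fitted M2 minus F2 difference of 1 member on the log2(FPKM + 1) scale with its standard error, ordered from low to high. Blue points are the 10 members called higher in M2, between 1.03 and 2.32, and no grey point passes the dashed line at -1.

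The largest difference was that of Zardc31008. It had 21.5 and 19.7 FPKM in M2, against 3.22, 3.87 and 2.91 FPKM in F2. The groups were far apart, and M2 was higher by 2.32 ± 0.19 (log2, SE, limma adjusted p = 2.7e-08). This gene also differed at the other stages, with 16.5 ± 0.5 FPKM in M1 and 5.98 ± 2.18 in F1, 52.1 ± 3.4 in M3 and 28.9 ± 2.4 in F3, and 5.11 ± 0.18 in M4 and 9.72 ± 1.92 in F4 (SD, n = 3 each). Zardc47149 had 3.05 and 2.72 FPKM in M2, against 0.20, 0.08 and 0.07 FPKM in F2, a difference of 1.80 ± 0.22 (log2, SE, limma adjusted p = 4.0e-06). In females it stayed at or below 0.36 FPKM in every F1 and F2 library and had 6.83, 4.30 and 3.16 FPKM in F3, whereas in males it had 7.84, 5.85 and 5.77 FPKM in M3. Its M2 libraries lay above all M1 libraries, while its F2 and F1 libraries overlapped.

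To place stage 2 for every member, its level was expressed as a position between stage 1 (0) and stage 3 (1) of the same sex. The median position was 0.31 in males and -0.02 in females. In males 8 members were lower at stage 2 than at stage 1, 35 lay between stage 1 and the midpoint, 11 between the midpoint and stage 3, and 2 at or above stage 3. In females these counts were 32, 17, 4 and 3. In both sexes 41 members were nearer to stage 1 and 5 nearer to stage 3, while 8 were nearer to stage 3 in males alone and 2 in females alone. A stage 2 level below stage 1 was found in both sexes for 6 members, in females alone for 26 and in males alone for 2. These positions share the stage 1 and stage 3 libraries with the rule and are given as a description.

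**Figure D4:**
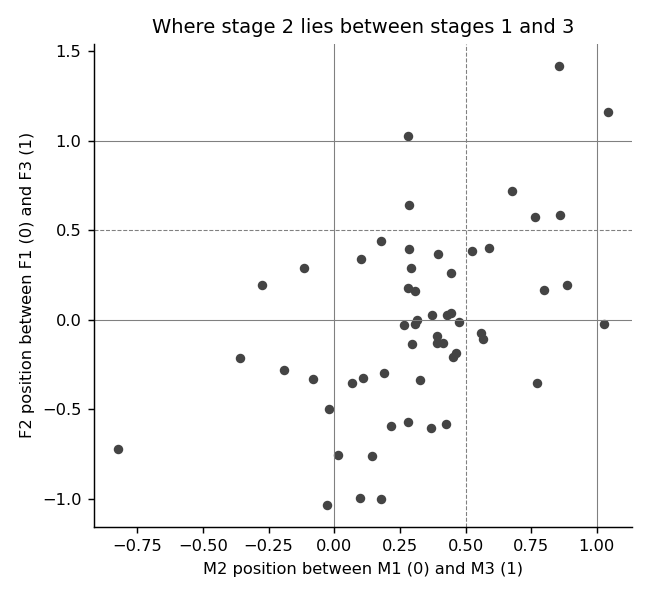
Each point is 1 of the 56 members, with the position of M2 between M1 and M3 on the horizontal axis and of F2 between F1 and F3 on the vertical axis, both without unit. Most points lie between 0 and 0.5 on the male axis, while 32 lie below 0 on the female axis.

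The fitted steps into and out of stage 2 showed the same picture sex by sex. M2 vs M1 had 10 members called higher and 0 called lower, against 2.04% and 2.88% of all genes tested, and at an unadjusted p the total was also 10. F2 vs F1 had 4 called higher and 7 called lower, against 1.06% and 3.15% of all genes tested. Of the 7 called lower, 4 belong to 1 run of neighbouring gene IDs, and counting each run once leaves 4. The step from stage 2 to stage 3 was called higher for 25 members in M3 vs M2, against 1.25% of all genes tested, and for 44 members in F3 vs F2, against 4.18%. None was called lower in either step by limma, at an adjusted or an unadjusted p, against 1.27% and 2.92% of all genes tested. The median step was 0.96 in males and 1.49 in females, against 0.00 in each sex over all genes tested. With every library scaled to the same sum, 38 members were called higher in F3 vs F2 and 24 in M3 vs M2. The rule asked for low values in M1 and F1 and high values in M3 and F3, so a rise was favoured by the choice of members in each of these 4 steps, and the counts describe the set.

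The members that had risen most by stage 2 in both sexes were Zardc40073 and Zardc39799. Zardc40073 had 4.25, 4.45 and 2.88 FPKM in M1, 32.7 and 30.8 in M2, 31.5, 25.7 and 31.0 in M3, and 11.3, 8.11 and 13.0 in M4. Its female values were 7.75, 7.50 and 5.87 FPKM in F1, 29.7, 24.6 and 24.1 in F2, 26.9, 22.4 and 17.3 in F3, and 3.95, 3.42 and 3.67 in F4. Stages 2 and 3 overlapped in both sexes, so this member had a plateau over initiation and differentiation and not a peak at stage 3 alone. Zardc39799 had a similar form over stages 1 to 3 at a lower level. It had 6.87 ± 0.47 FPKM in M2 (n = 2) and 8.23 ± 1.59 in M3, against 2.29 ± 0.94 in M1. In females it had 7.90 ± 2.56 in F2 and 5.62 ± 2.19 in F3, against 2.01 ± 0.17 in F1. At stage 4 it had 3.29 ± 0.996 in M4 and 1.88 ± 1.55 in F4 (SD, n = 3). Its F3 and F4 libraries overlapped, with 3.13 FPKM in F3 replicate 3 and 3.65 in F4 replicate 3. M2 vs F2 was not called for either gene, at 0.28 ± 0.19 for Zardc40073 and -0.14 ± 0.36 for Zardc39799 (log2, SE, limma adjusted p = 0.33 and 0.83).

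The members that rose most after stage 2 in both sexes were Zardc20727 and Zardc05848. Zardc20727 had 283, 266 and 267 FPKM in M1, 154 and 151 in M2, 519, 582 and 547 in M3, and 87.8, 92.8 and 102 in M4. Its female values were 273, 268 and 263 FPKM in F1, 125, 121 and 126 in F2, 757, 860.4 and 723 in F3, and 139.8, 151 and 151 in F4. All stage 2 libraries lay below all stage 1 libraries in both sexes, so the peak followed a dip. Zardc05848 had 272 ± 64 FPKM in M3, against 71.2 ± 0.7 in M2, and 281 ± 89 in F3, against 79.0 ± 4.0 in F2 (SD, n = 3, M2 n = 2), and the spread at stage 3 came from replicate 3, with 345 FPKM in M3 and 382 in F3.

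Whether the step from stage 2 to stage 3 differed between the sexes was tested as the interaction, the male step minus the female step. The female step was the larger one more often, with 13 members called lower in this test, against 3.05% of all genes tested, and 1 called higher, against 2.03%. Counting each run of neighbouring gene IDs once leaves 11 called lower. Tested against the fold threshold itself (limma treat), none of the 13 was left and the 1 called higher remained. Since members have M3 and F3 close together by the rule, this count leans on the same M2 and F2 libraries as M2 vs F2 and is no separate evidence. With every library scaled to the same sum, 9 members were called, 8 of them lower. The exception to the direction was Zardc41874, with 96.1 and 98.0 FPKM in M2 and 150.2, 158 and 167.9 FPKM in F2. In M3 it had 264, 313 and 317 FPKM, against 156, 171 and 136 FPKM in F3, so the female libraries of stages 2 and 3 overlapped while the male ones did not. The male step exceeded the female step by 1.65 ± 0.12 (log2, SE, limma adjusted p = 9.8e-09).

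At the other end stood Zardc34818 and Zardc07592. Zardc34818 had 22.6 and 15.5 FPKM in M2, against 6.34, 4.44 and 6.19 FPKM in F2, and 21.0, 22.2 and 34.9 FPKM in M3, against 38.7, 34.6 and 45.8 FPKM in F3. Males changed little between the stages with overlapping libraries, and the male step minus the female step was -2.20 ± 0.39 (log2, SE, limma adjusted p = 3.7e-04). Zardc07592 was near the detection limit, with 0.73 and 1.97 FPKM in M2, against 0, 0.52 and 0 FPKM in F2, and 1.37, 3.92 and 5.03 FPKM in M3, against 4.05, 5.77 and 7.24 FPKM in F3. Its difference of -1.65 ± 0.55 (log2, SE, limma adjusted p = 0.040) was no longer called without any one of 6 libraries, namely M2 replicate 2, M3 replicate 1, F2 replicates 1 and 3, and F3 replicates 2 and 3, where the limma adjusted p was 0.068 to 0.20.

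At stage 4 the members held 0.273% ± 0.011 of the FPKM in M4, against 0.351% ± 0.008 in M1, and 0.172% ± 0.003 in F4, against 0.389% ± 0.003 in F1 (SD, n = 3). M4 vs M1 had 1 member called higher and 4 called lower, against 6.89% and 6.96% of all genes tested, and F4 vs F1 had 2 called higher and 7 called lower, against 5.54% and 5.41%. Counting each run of neighbouring gene IDs once leaves 3 called lower in M4 vs M1 and 1 called higher in F4 vs F1. The stage 4 mean lay below the stage 1 mean in 31 members in males, in 35 in females and in 21 in both. Between the sexes, M4 vs F4 had 3 members called higher and 6 called lower, against 4.64% and 3.47% of all genes tested, and 4 and 4 without M4 replicate 3. M1 vs F1 had 1 called higher and 2 called lower, against 2.58% and 1.35%. All of these groups served the rule, so the counts describe the set.

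A feature that the rule did not use was the place of the gene IDs. The members held 5 runs of neighbouring ID numbers, with at most 5 between one member and the next, and 12 members, or 21.4%, were in a run. The share was 20.9% for genes with a stage 3 peak in males and 22.7% for those in females, 9.18% for genes with a stage 1 peak in both sexes and 13.3% for those with a stage 4 peak in both. These shares were not tested, and they move with the size of each list. Near-identical gene copies can share reads, so values of neighbouring IDs may not be independent. Across the 23 libraries the lowest Pearson correlation of log2(FPKM + 1) within a run was 0.80 to 0.98, a description over libraries that include those the rule used.

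The longest run was Zardc30032, Zardc30035, Zardc30037 and Zardc30038. Zardc30038 had 88.6, 80.4 and 90.2 FPKM in M1, 96.1 and 95.9 in M2, 243, 258 and 251 in M3, and 105, 112 and 102 in M4. In females it had 86.7, 78.4 and 91.7 FPKM in F1, 40.1, 40.0 and 39.8 in F2, 161, 179 and 208 in F3, and 90.7, 89.7 and 83.3 in F4. The F2 libraries lay below every other library of either sex, and this was so for all 4 genes of the run. At stage 2, Zardc30032 averaged 51.7 ± 4.1 FPKM in M2 and 22.1 ± 1.1 in F2, Zardc30035 averaged 53.2 ± 0.02 in M2 and 28.5 ± 2.5 in F2, and Zardc30037 averaged 38.6 ± 0.4 in M2 and 14.7 ± 1.7 in F2 (SD, n = 2 for M2 and n = 3 for F2).

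M2 vs F2 was called for 3 of the 4 genes of this run. The difference was 1.24 ± 0.08 for Zardc30038, 1.19 ± 0.11 for Zardc30032 and 1.34 ± 0.14 for Zardc30037 (log2, SE, limma adjusted p = 1.4e-09, 1.2e-07 and 8.7e-07). Zardc30035 stood at 0.88 ± 0.09 (limma adjusted p = 6.3e-07) and missed the fold threshold. F2 was called lower than F1 in all 4, between -1.13 and -1.06, whereas M2 vs M1 was called in none of them, between -0.04 and 0.37. Between these IDs the tables also listed Zardc30033, Zardc30034 and Zardc30036, which were not members. Zardc30034 averaged 2.22 ± 0.36 FPKM in M3 and 2.40 ± 0.20 in F3, against 1.44 ± 0.17 in M1 and 1.24 ± 0.26 in F1 (SD, n = 3), and Zardc30033 stayed near 0. Zardc30036 fell short of the rule, although its stage 3 means lay above those of stages 1 and 4. M3 exceeded M1 by 0.47 and M4 by 0.05, and F3 exceeded F1 by 0.24 and F4 by 0.37 (log2). It had 4.65 ± 1.93 FPKM in M3, against 5.73 ± 0.35 in M2 (SD, n = 3, M2 n = 2). In females it had 5.42 ± 2.12 in F3, against 5.98 ± 1.26 in F2 (SD, n = 3).

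**Figure D5:**
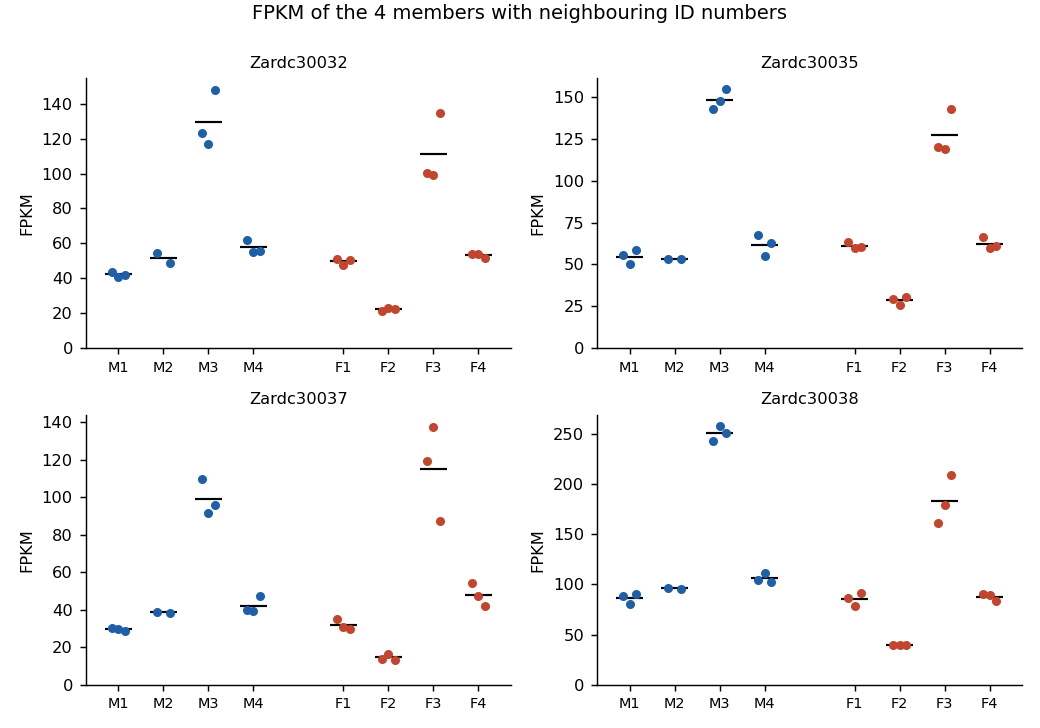
Points are the FPKM of single libraries for the 4 members of the longest ID run, male groups in blue on the left and female groups in red on the right, with black bars at the group means. In each panel the F2 libraries are the lowest female libraries, and M2 lies between 38.3 and 96.1 FPKM across the panels, against 13.4 to 40.1 FPKM in F2.

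The genes analysed here from the hormone, sugar, zeatin and MADS-box lists annotated by the study held no member. These lists were chosen by the study on the same samples and are not independent evidence. Sugar genes were partly taken from rises into M4 or F4, and MADS-box and zeatin genes from differences between the sexes. Such choices work against a stage 3 peak that both sexes share. Hormone genes were partly taken from rises into M3 or F3. The absence of members from these lists therefore says little. Of 129 genes, 123 were tested, 1 had a stage 3 peak in males by the rule, 1 in females and 0 in both. Over all genes tested such peaks made up 0.604% in males and 0.772% in females, a share that gives about as few in a list of this size. Of the 123 tested, 13 were highest at stage 3 in both sexes, against 14.8% of all genes tested, a comparison with the same limit. The nearest to the rule was the transcript annotated *ZaSAUR32*, of a family of small auxin-responsive genes, with a smallest difference of 0.76, at 8.22, 6.61 and 7.11 FPKM in M3 and 13.2, 13.5 and 13.2 FPKM in F3. Zardc13708 (*ZaCAPE3*) followed with 0.58, at low levels of 1.17 ± 0.72 FPKM in M3 and 1.85 ± 1.51 in F3 (SD, n = 3). The auxin influx carriers Zardc55290 (*ZaLAX2*) and Zardc55291 (*ZaLAX3*), named after carriers of *Arabidopsis*, had smallest differences of 0.46 and 0.34. Zardc55290 averaged 13.3 ± 2.9 FPKM in M3 and 25.9 ± 6.5 in F3, and Zardc55291 averaged 8.79 ± 0.69 in M3 and 14.2 ± 0.4 in F3 (SD, n = 3). Zardc09485 (*ZaAHG3*, named after an *Arabidopsis* phosphatase that damps abscisic acid signalling) averaged 73.4 ± 2.7 FPKM in M3 and 109.6 ± 3.0 in F3, against 59.4 ± 3.0 in M4 and 56.1 ± 4.6 in F4 (SD, n = 3), and its smallest difference, M3 over M4, was 0.30.

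Under the rule, fewer genes had a peak at stage 3 than at either end of the series. A steady rise or a steady fall can count as a peak at an end, whereas a stage 3 peak needs a rise and then a fall. These kinds of peak are therefore not like for like, and how far this accounts for the counts was not tested. By the same rule, 234 genes peaked at stage 3 in males and 299 in females, which is 0.604% and 0.772% of the genes tested, and 75 genes did so in both. These were 32.1% of the male and 25.1% of the female list, and 56 of them had M3 and F3 less than 1 apart. For a stage 4 peak over stages 1 and 3 the numbers were 1291 genes in males, 955 in females and 560 in both, and for a stage 1 peak over stages 3 and 4 they were 837, 679 and 224. Both sexes shared 43.4% of the male and 58.6% of the female stage 4 list, and 26.8% of the male and 33.0% of the female stage 1 list.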

How the data were processed

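Floral buds were pooled from several trees per library, and 24 libraries were sequenced on an Illumina platform. The authors aligned the reads to the *Z. armatum* genome, counted them with HTSeq and deposited 1 table of FPKM (fragment counts scaled to transcript length and library size) per library, with no counts. The submitters' processing notes list Bowtie beside a mouse genome build, which cannot apply to this plant, so which aligner made these files is unclear. The tables give no read counts per gene, so no counting interval was made, and only relative depth was read from the steps between low values.

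The table deposited for M2 replicate 3 was left out for the reason given above, which leaves 23 libraries. Values were used as log2(FPKM + 1), and 38734 genes that reached 1 FPKM in 3 or more libraries were kept. Groups follow the sample labels. Means, differences and the membership rule were computed in Python 3.11.15 with pandas 2.3.3. Contrasts were fitted with limma 3.58.1 in R 4.3.3 with a mean-variance trend over all 8 groups, with p-values adjusted by Benjamini-Hochberg over all genes. A call needed an adjusted p of at most 0.05 and a log2 fold change of at least 1 in size. The limma fit was tried on simulated data with known changes in M2 vs F2. The membership rule and the other contrasts were not tried in this way. A count model was not used, since FPKM are not counts. With 3 libraries against 3, an exact permutation test cannot go below p = 0.1, so no single-gene permutation test is given.

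1 gene that met the rule is not reported here. The members, lists and tests were chosen with earlier results of these data known. Genes were named by rule, namely the members of highest FPKM, of largest smallest difference, nearest to the threshold, called most strongly in M2 vs F2 and in the interaction, risen most by or after stage 2, and in the longest ID run, and the nearest annotated genes. The alternatives were other pseudocounts, no filter, quantile normalization, group medians, a stricter difference, a fit on the compared groups only, a replicate block, an unadjusted p, limma treat and each library left out. Scaling to equal FPKM sums was added after the data were seen.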

Additional observations from a re-analysis of the deposited data

Results flagged for a closer look

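The step from stage 2 to stage 3 differed between the sexes for 9 of the members named above, by the interaction term in limma (male step minus female step, log2). The largest differences were -2.20 for Zardc34818, 1.65 for Zardc41874 and -1.65 for Zardc07592. The others were -1.54 for Zardc30037, -1.49 for Zardc31008, -1.39 for Zardc35777, -1.38 for Zardc47149, -1.37 for Zardc44835 and -1.08 for Zardc26025. In 8 of the 9 the female step was the larger one. Several of the 9 were named because they were called here or in M2 vs F2. These counts therefore follow in part from the naming. Of all 56 members, 13 were called lower and 1 higher, against 3.05% and 2.03% of all genes tested. With each run of neighbouring gene IDs counted once, 11 were called lower. Limma treat left only Zardc41874, and the call of Zardc07592 was lost in fits without single libraries. The test leans on the same M2 and F2 libraries as M2 vs F2 and is no separate evidence.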

How the results depend on the processing

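The size of the set depended most on the pseudocount and on the fold required. A pseudocount of 0.1 gave 118 genes in both sexes, 601 in males and 706 in females, and differences of at least 1.5 gave 4, 54 and 60. Leaving out 1 library gave 50 to 60 genes in both sexes, 227 to 258 in males and 293 to 345 in females. Scaling to equal sums gave 44 genes, 37 of them shared with the 56, and quantile normalization gave 55, of which 48 were shared. Testing against the fold threshold itself left 1 member in M2 vs F2, 7 in M3 vs M2, 27 in F3 vs F2, 3 in M2 vs M1, 2 in F2 vs F1, 1 in the interaction (the member called higher), 2 in M4 vs M1, 2 in M4 vs F4 and 0 in M1 vs F1, where limma called 3 members at an adjusted or an unadjusted p. With a pseudocount of 0.1, 9 members were called in M4 vs M1, 14 in F4 vs F1, 8 in M1 vs F1 and 14 in M4 vs F4, and with 0.5, 6 were called in M1 vs F1. Scaling to equal sums left 9 calls in the interaction. The share of all genes tested was taken for the main fit alone. The counts under the alternatives therefore cannot tell a change in the members from a change in all genes. The causes of these changes were not tested. Without 1 library of the groups compared, 9 to 11 members were called in M2 vs F2, 24 to 27 in M3 vs M2, 41 to 45 in F3 vs F2, 8 to 10 in M2 vs M1, 9 to 11 in F2 vs F1, 12 to 16 in the interaction, 5 to 7 in M4 vs M1, 8 to 11 in F4 vs F1, 2 to 3 in M1 vs F1 and 8 to 11 in M4 vs F4. Where this left 1 M2 library, that library was assumed to vary like the other groups. In M2 vs F2, 1 member was called lower under quantile normalization, without M2 replicate 1 and without F2 replicate 1, and none under the other alternatives. In M4 vs F4, 3 to 5 members were called higher and 4 to 7 lower with 1 library left out. The difference of Zardc12046 in M2 vs F2, 0.01, became -0.0034 under quantile normalization and ran from -0.072 (without M2 replicate 1) to 0.096 with 1 library left out, and that of Zardc39799, -0.14, ran from -0.28 to 0.083 (without F2 replicate 1).

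In the comparisons checked, libraries with the same replicate number did not deviate together, with correlations of -0.056 to 0.091 over 24 pairs. The numbers therefore give no pairing in those comparisons. M3 vs F3 was not among them, so whether the numbers pair those libraries was not tested. With the replicate number as a block, 9 members were called in M2 vs F2, 27 in M3 vs M2, 44 in F3 vs F2 and 15 in the interaction. The FPKM tables give no read counts behind a value, which limits what can be said of members below 1 FPKM at a stage.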
